A study of Mus musculus with 3 samples.

Results

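The mitochondrial respiratory chain was followed through 105 gene symbols of 31253 features counted in mouse jaw cells. A gene was taken by its name: symbols beginning with mt-Nd, mt-Co, mt-Cyt, mt-Atp, Nduf, Uqcr, Cox4i, Cox5, Cox6, Cox7, Cox8 or Atp5. The rule gave 13 genes of the mitochondrial genome and 92 of the nuclear genome. The mitochondrial genes comprised 7 of complex I, 1 of complex III, 3 of complex IV and 2 of complex V, and the nuclear genes 47, 8, 19 and 18. At least 1 unique molecular identifier (UMI, a counted mRNA molecule) was found in every library for 101 of the 105. The 3 with no UMI were Cox8b, Cox8c and one of the features named Atp5o, and Cox7b2 had 2 UMIs in all. The names do not map onto the complexes without exception: Ndufa4, counted here with complex I by its name, is known as a subunit of complex IV, the 8 Ndufaf genes encode assembly factors, Ndufab1 encodes the mitochondrial acyl carrier protein, and Cox7a2l a factor that joins complexes III and IV. Complex II, cytochrome c and the cytochrome c1 gene Cyc1 lie outside the naming rule.

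The study compared jaw tissue of wild-type male C57BL/6 mice aged 10 weeks that were not irradiated (Ctrl) with tissue taken 1 day (1d) and 7 days (7d) after the head and neck received 10 Gy. Cells of 8 mice, 24 in all, were pooled per library, and each group was 1 library of the 10x Genomics 3′ assay, made from frozen cell suspensions. No spread between animals can be given and no test between groups was possible. Every interval below is an exact 95% interval that covers counting error only.

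The chain passes electrons from NADH through complex I, from ubiquinol through complex III and from cytochrome c to oxygen through complex IV, and ATP synthase (complex V) uses the resulting proton gradient. Most subunits are encoded in the nucleus and imported, while the mitochondrial genome encodes a few hydrophobic core subunits of complexes I, III, IV and V, so each of these complexes draws on both genomes. Mature neutrophils are known to depend mainly on glycolysis, and erythroid cells lose their mitochondria as they mature.

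The mitochondrial genes are packed so closely that some share bases, which bears on how their reads can be told apart. Of the overlapping pairs of members, 2 are shown. Not shown are mt-Nd5 and mt-Nd6, which overlap by 14 bases on opposite strands, and mt-Atp6 and mt-Co3, which overlap by 1. The end of mt-Atp8 (chrM:7910-7969) and the start of mt-Atp6 (chrM:7927-7986), both on the + strand of mm10, are shown because their annotated genes overlap by 43 bases. Capitals mark the shared bases.
mt-Atp8 end: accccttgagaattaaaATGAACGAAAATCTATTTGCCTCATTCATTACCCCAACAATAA
mt-Atp6 start: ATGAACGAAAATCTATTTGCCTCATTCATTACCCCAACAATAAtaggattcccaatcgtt
The end of mt-Nd4l (chrM:10114-10173) and the start of mt-Nd4 (chrM:10167-10226) overlap by 7 bases, again in capitals. Each pair shown is known to lie on 1 shared mRNA.
mt-Nd4l end: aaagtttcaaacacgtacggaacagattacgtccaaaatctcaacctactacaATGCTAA
mt-Nd4 start: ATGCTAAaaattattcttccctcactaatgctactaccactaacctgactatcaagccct
The values of mt-Atp8 and mt-Nd4l are therefore uncertain, since a read taken from the shared mRNA need not fall in the named gene.

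Promoters are shown for 3 nuclear members with at least 100 UMIs in T cells of Ctrl and 7d together. At 7d their ratios to Ctrl lay furthest from 1 on either side, by the nearer end of the interval. The promoters are those of Ndufs5 and Ndufb7, accessory subunits of complex I that were lower, and Cox7a2l, which was higher. They run from 250 bases before to 50 after the RefSeq start in GRCm38.p6: chr4:123718137-123718436 (− strand), chr8:83566508-83566807 (+ strand) and chr17:83514284-83514583 (− strand). Capitals mark the letters TGCGCA, the core of the site of the factor NRF1, or CCGGAAG, the core of the ETS site that GABP binds.
Ndufs5: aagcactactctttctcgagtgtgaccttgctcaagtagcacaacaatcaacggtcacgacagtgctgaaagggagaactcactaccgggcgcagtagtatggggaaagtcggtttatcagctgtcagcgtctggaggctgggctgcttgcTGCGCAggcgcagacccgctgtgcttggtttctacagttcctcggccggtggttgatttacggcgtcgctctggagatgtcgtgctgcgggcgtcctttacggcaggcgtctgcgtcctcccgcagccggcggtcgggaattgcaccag
Ndufb7: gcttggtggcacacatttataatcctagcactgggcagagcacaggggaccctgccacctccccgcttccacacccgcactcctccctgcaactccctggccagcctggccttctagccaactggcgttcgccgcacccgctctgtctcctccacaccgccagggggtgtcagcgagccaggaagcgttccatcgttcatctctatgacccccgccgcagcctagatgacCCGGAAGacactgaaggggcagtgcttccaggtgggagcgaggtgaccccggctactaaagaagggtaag
Cox7a2l: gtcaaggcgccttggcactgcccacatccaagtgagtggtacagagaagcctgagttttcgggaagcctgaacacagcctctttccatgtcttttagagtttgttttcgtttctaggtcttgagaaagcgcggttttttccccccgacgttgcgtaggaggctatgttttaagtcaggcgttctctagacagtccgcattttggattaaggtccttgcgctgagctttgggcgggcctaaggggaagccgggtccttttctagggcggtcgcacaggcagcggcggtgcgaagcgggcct
Searched on both strands, TGCGCA was found in 17 of the 73 nuclear members with a promoter entry (23.3%) and in 8.06% of all 27025 promoters. CCGGAAG was found in 16 members (21.9%, against 9.12%), and AAGATGGC, the core of a YY1 site, in 10 (13.7%, against 2.88%). The hypoxia element core ACGTG was found in 17 (23.3%, against 19.7%). The Cox7a2l promoter held none of these letters at the RefSeq start used, which lies inside the annotated gene (chr17:83501918-83517330). These matches are a description of the sequences.

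Total counts were 41048084 UMIs in Ctrl, 46119700 in 1d and 49998293 in 7d. After filters on UMIs and genes, with no filter on mitochondrial share, 8687, 5014 and 6271 cells were kept, with median depths of 2412, 4921 and 3776 UMIs. The libraries shared 12 to 24 cell barcodes by pair. Clustering without the 105 genes gave 31 clusters, and class names below stand for cells that resemble the class by marker genes. Blood and marrow cells filled most classes, while osteoblast-like cells numbered 50 in Ctrl, and 11 classes had at least 30 cells in every library. Because the assay counts 3′ ends and not whole transcripts, levels are compared for 1 gene or 1 sum across classes and libraries, never between genes.

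In every library the mitochondrially encoded sum was lowest in neutrophils and highest in B cells among the 11 classes. It took 3.12%, 2.86% and 3.22% of the UMIs of B cells in Ctrl, 1d and 7d, and 0.453%, 0.391% and 0.370% of those of neutrophils. T cells (2.73%, 2.64% and 2.74%) and fibroblasts (2.52%, 2.28% and 2.48%) stood next below B cells in every library. Monocytes, macrophages, dendritic cells and mast cells with basophils lay between 1.52% and 2.10%. Erythroid cells were at 1.05%, 1.08% and 0.792%. The order of the classes held across all 3 libraries at both ends.

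The nuclear-encoded sum ordered the classes differently. Neutrophil precursors (2.03%, 1.87% and 2.40% of UMIs) and monocytes (2.18%, 2.34% and 1.87%) held the highest 2 places in every library. Neutrophils were again low at 0.700%, 0.725% and 0.661%, and B cells, first for the mitochondrial genes, stood at 1.29%, 1.45% and 1.02%. Neutrophil precursors thus had 0.473 to 0.550 mitochondrially encoded UMIs for each nuclear-encoded one and B cells 1.97 to 3.15, the lowest and highest of the 11 classes in each library. Outside the 11 classes, an unnamed cluster was led by Pf4 and Itga2b, genes known from megakaryocytes. By markers it matched haematopoietic stem and progenitor cells best, with 7 of 8 passing, and Cd34 and Meis1 were among its top genes. It had nuclear sums of 3.24%, 2.68% and 2.58%. In Ctrl this was the highest of any cluster of at least 30 cells, while at 1d and 7d the Elane and Mpo cluster of the neutrophil precursors stood above it, at 2.83% in both. Epithelial cells, with 81 cells in Ctrl, had the highest mitochondrial share of the named classes at 4.93%, with a nuclear share of 2.52%. Of these 81 cells, 17 had over 15% of their UMIs from mitochondrial genes, and all of them are included in that share.

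Each complex's sums were compared across classes in Ctrl, separately for the genes of each genome. The 3 mitochondrial genes of complex IV took 1.36% of UMIs in T cells, 0.611% in neutrophil precursors and 0.298% in neutrophils. Its nuclear genes took 0.383%, 0.644% and 0.229% in the same classes. The 7 mitochondrial genes of complex I took 0.520% in B cells, 0.112% in precursors and 0.0516% in neutrophils, and its nuclear genes 0.363%, 0.631% and 0.181%. Precursors thus stood below T or B cells for the mitochondrial genes of these complexes and above them for the nuclear genes. The nuclear genes of ATP synthase took 0.212% in neutrophils, 0.561% in precursors, 0.706% in monocytes and 0.510% in T cells, all in Ctrl.

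Across the 11 classes, nuclear members differed widely in how even their levels were. Atp5md, a small subunit associated with ATP synthase, was the most even, with a 2.03-fold range between the highest class (T cells) and the lowest (erythroid cells). Ndufab1 spanned 29.2-fold, Ndufa5, an accessory subunit of complex I, 26.1-fold, the assembly factor Ndufaf2 22.1-fold and the accessory subunit Ndufa9 18.5-fold. Atp5g1, which encodes subunit c of the ATP synthase ring, spanned 15.8-fold. Neutrophils were the lowest class for these 5 genes in all libraries. The mitochondrial members spanned 5.12-fold to 18.3-fold, most for mt-Nd4l, whose count is uncertain.

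The neutrophil lineage gave the widest contrast. Levels of single genes are given as UMIs of the gene per 1000000 UMIs of the class (CPM). Ndufab1 stood at 5.38, 5.12 and 2.30 CPM in neutrophils of Ctrl, 1d and 7d and at 88.2, 102 and 176 in neutrophil precursors. Ndufa5 stood at 4.75, 3.92 and 3.44 in neutrophils and at 74.8, 77.5 and 118 in precursors. Atp5g1 stood at 17.9, 16.9 and 14.9 in neutrophils and at 207, 222 and 391 in precursors. Ndufa9 stood at 1.81 to 2.43 CPM in neutrophils and 18.6 to 41.6 in precursors. All of these genes, Ndufa9 included, were taken from those with the widest ranges and neutrophils lowest. A gap between the classes therefore follows from that choice. Atp5md, by contrast, was at 247, 265 and 198 CPM in neutrophils and at 306, 294 and 376 in precursors.

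Across the mitochondrial genome the 13 genes did not keep fixed proportions between cell classes. Of the UMIs of the 13, mt-Co1, the catalytic subunit of complex IV, took 29.2%, 32.04% and 31.5% in neutrophils of Ctrl, 1d and 7d, but 14.5%, 14.4% and 16.2% in fibroblasts. The cytochrome b gene mt-Cytb went the other way, at 7.99%, 7.39% and 7.14% in neutrophils and 19.0%, 19.5% and 15.8% in fibroblasts. Osteoblasts, of which 50 cells were in Ctrl, 8 in 1d and 1 in 7d, stood near fibroblasts in Ctrl with 13.8% for mt-Co1 and 21.2% for mt-Cytb. T cells lay between, at 19.2%, 19.0% and 22.2% for mt-Co1. mt-Nd6, the only mitochondrial member read from the other strand, took at most 0.104% in any class and library.

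At 7d the proportions stood away from Ctrl in the same direction in most of the 11 classes. The share of mt-Co1 was higher in 10 of 11 classes, with a median log2 ratio of 0.18, and that of mt-Co3 in 10 (0.20). The share of mt-Cytb was lower in 10 of 11 (−0.27), those of mt-Nd2 (−0.28) and mt-Nd5 (−0.28) in 10, and that of mt-Co2 in all 11 (−0.14). In T cells mt-Cytb took 13.4% of the 13 genes' UMIs in Ctrl, 12.7% at 1d and 10.5% at 7d, and mt-Nd2 3.94%, 4.11% and 3.24%. In B cells mt-Cytb took 13.5%, 13.3% and 11.2%. At 1d mt-Co3 was already higher in 10 classes (0.14), and mt-Co2 and mt-Nd5 were lower in 10. The 11 classes share their library and are not replicates.

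The same directions of mt-Co1 and mt-Cytb were present in barcodes that were not kept. In barcodes left out for few genes, 2377, 810 and 1122 by library, mt-Co1 took 21.7%, 24.8% and 28.7% of the UMIs of the 13 genes and mt-Cytb 10.98%, 9.10% and 7.49%. In kept cells with over 15% mitochondrial UMIs mt-Co1 took 20.3%, 23.4% and 25.2% and mt-Cytb 11.1%, 8.09% and 6.89%. The makeup of these cells differed by library. An unnamed cluster of few UMIs held 8 of 57, 66 of 104 and 88 of 117, and epithelial cells held 17 of those in Ctrl. Whether the proportions moved with the animals, the handling of a library or free RNA was not tested, and the library and the group cannot be told apart.

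**Figure D1:**
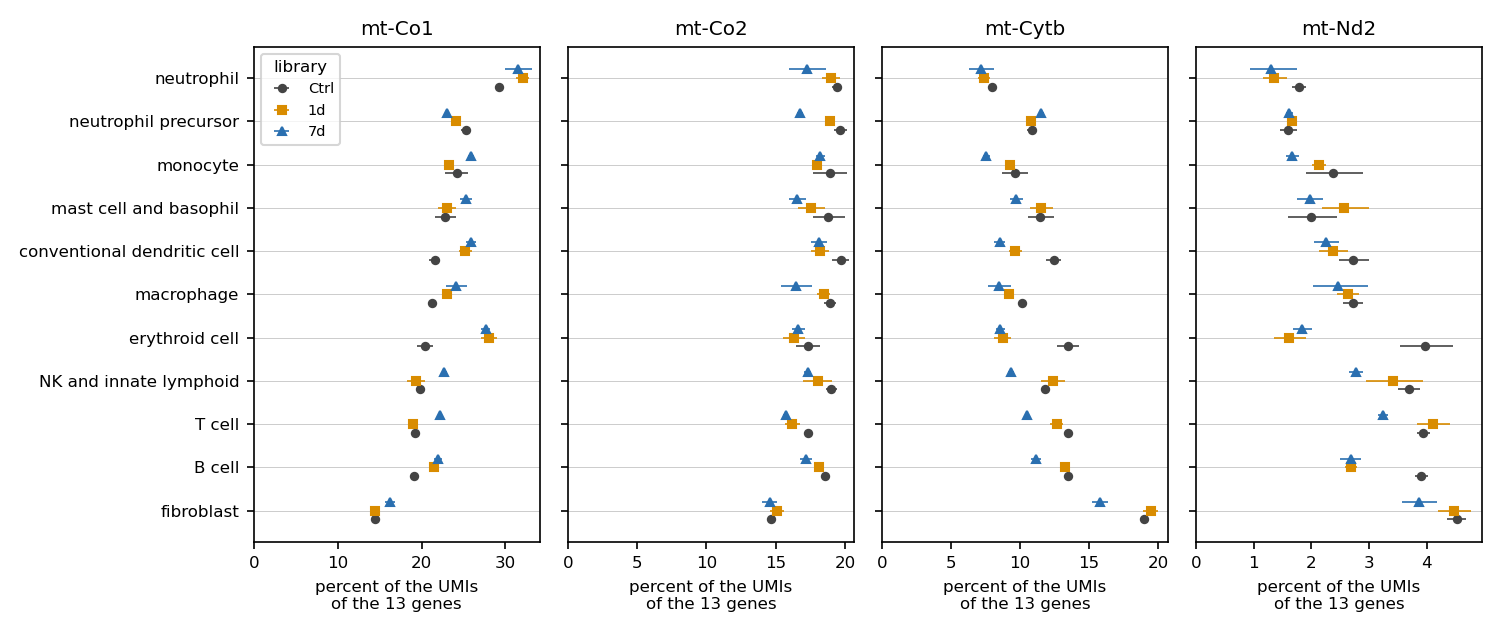
Share of each mitochondrial gene among the UMIs of the 13 (percent) by class and library. mt-Co1 takes 29.2% to 32.04% in neutrophils and 14.4% to 16.2% in fibroblasts, and mt-Cytb the reverse order.

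At 7d the nuclear-encoded members were lower in B, T and NK cells, and the mitochondrially encoded sum of each class was not. In T cells (1288, 171 and 1865 cells in Ctrl, 1d and 7d) the nuclear sum took 1.49%, 1.35% and 1.18% of UMIs, a 7d ratio to Ctrl of 0.796 (0.788 to 0.804). In B cells (1787, 1266 and 486 cells) the 7d ratio was 0.794 (0.777 to 0.812). In NK and innate lymphoid cells (553, 53 and 1096 cells) the shares were 1.54%, 1.75% and 1.30%, a ratio of 0.850 (0.836 to 0.863). The mitochondrially encoded sum had 7d ratios of 1.00 in T cells, 1.03 in B cells and 1.08 in NK cells. The lymphocytes thus had fewer nuclear-encoded UMIs for each mitochondrially encoded one at 7d than in Ctrl.

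The 7d ratios of the nuclear sum were 0.776, 0.782 and 0.868 in the 3 T cell clusters and 0.778, 0.864 and 0.937 in the 3 B cell clusters. The interval of the last (0.876 to 1.002) included 1, and the intervals of the other 5 lay below it. In the same clusters and order the mitochondrial ratios were 1.06, 0.908 and 0.941 in T cells and 1.05, 0.962 and 0.986 in B cells, so that sum was lower than in Ctrl in 2 of 3 clusters of each class. In the B cell cluster at 0.937, whose top genes included the heat shock genes Hspa1a and Hspa1b, 25 of 52 tested nuclear members were lower. The median depth of T cells was 3156 UMIs in Ctrl and 3309 at 7d, and that of B cells 1912 and 1833. Ribosomal protein genes, another set of abundant short mRNAs, took 32.2% and 32.3% of T cell UMIs and 24.6% and 25.4% of B cell UMIs. In T cells haemoglobin genes summed to 6930, 438 and 2975 CPM in Ctrl, 1d and 7d, neutrophil markers to 991, 802 and 241 and cycling genes to 64.0, 170 and 64.7, and their part in the lower nuclear sum was not tested.

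**Figure D2:**
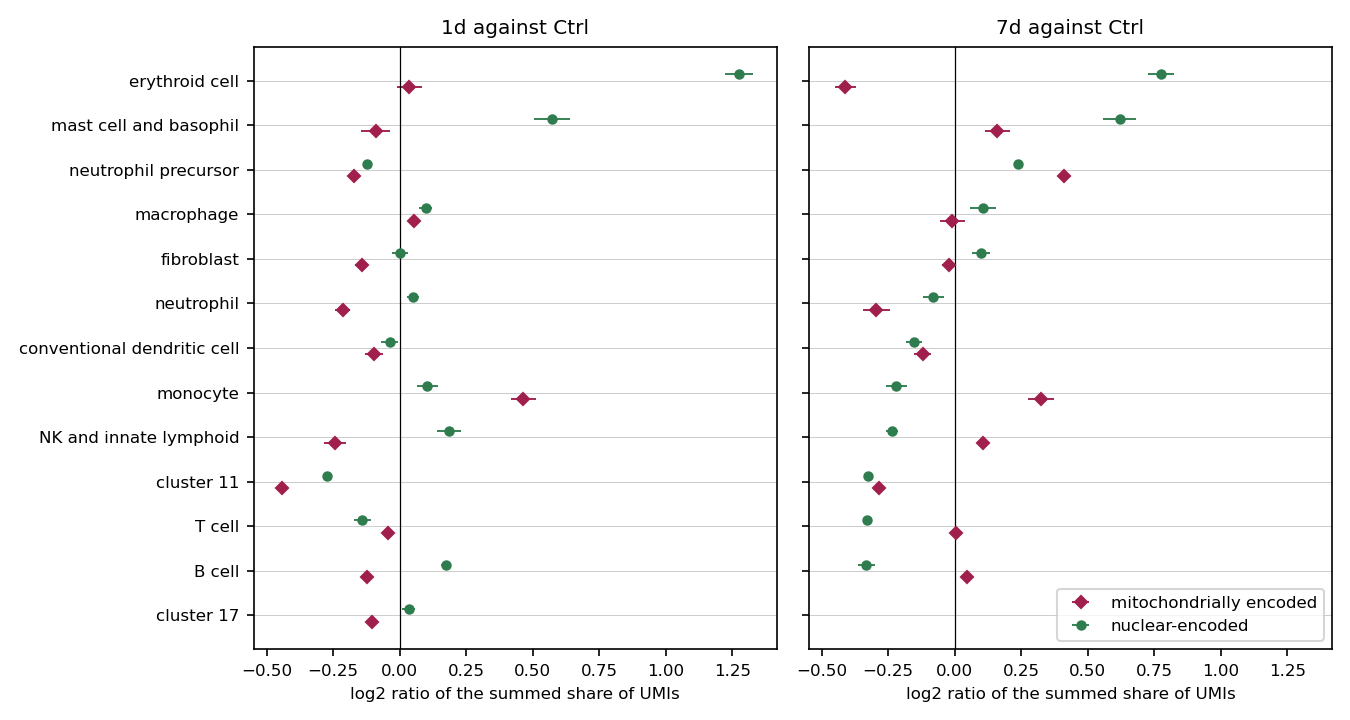
Ratio to Ctrl of the mitochondrially encoded and nuclear-encoded sums by class at 1d and 7d, on a log axis with exact 95% counting intervals. The 7d nuclear ratios of B, T and NK cells lie at 0.794, 0.796 and 0.850, while their mitochondrial ratios lie at 1.03, 1.00 and 1.08.

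A member is counted below as past 1.5-fold where its ratio of CPM was over 1.5 or under its inverse and the pair of libraries held at least 20 UMIs of it. In T cells at 7d 31 of 83 tested nuclear members were past 1.5-fold lower, against 20% of all genes tested, and 0 were past it higher, against 10.4%. In B cells it was 31 of 82 lower (20.1% of all genes) and 1 higher (12.7%). In NK cells it was 17 of 80 lower (18.2%) and 1 higher (12.9%). The NK share was near the background and the B and T shares were above it. The median log2 ratio of nuclear members was −0.48 in T cells (−0.13 over all genes), −0.42 in B cells (−0.07) and −0.26 in NK cells (−0.07). Of the tested nuclear members, 77 of 83 were lower in T cells, 74 of 82 in B cells and 66 of 80 in NK cells.

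By complex, the difference at 7d was widest in complexes I and III. In T cells the median log2 ratio was −0.55 for complex I (41 of 46 lower), −0.64 for complex III (8 of 8), −0.32 for complex IV (11 of 12) and −0.30 for complex V (17 of 17). In B cells the medians were −0.64, −0.48, −0.29 and −0.34, with all 17 tested genes of complex V lower. In NK cells they were −0.27, −0.46, −0.19 and −0.20. The 7 nuclear genes of the catalytic core of complex I had medians of −0.48 in T cells (7 of 7 lower), −0.42 in B cells (6 of 7) and −0.21 in NK cells (6 of 7).

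Single members at 7d were as follows, in CPM. Ndufs5 stood at 67.4 in T cells of Ctrl, 60.4 at 1d and 30.9 at 7d, a 7d ratio of 0.458 (0.382 to 0.550). Ndufb7 stood at 173, 106 and 88.1 in T cells (7d ratio 0.508) and at 225, 158 and 119 in NK cells (0.528). Ndufb8, a further accessory subunit of complex I, stood at 106, 90.5 and 52.3 in T cells (0.494). Ndufb7 was thus lower at 1d too, whereas Ndufs5 and Ndufb8 were low mainly at 7d. In B cells Ndufc2, an accessory subunit of complex I, stood at 72.6, 88.1 and 30.9 (0.426, 0.282 to 0.622). The complex III core protein gene Uqcrc2 stood at 78.2, 77.5 and 34.0 in B cells (0.435) and Atp5g1 at 147, 146 and 69.0 (0.471). These B cell genes were near their Ctrl level at 1d or above it. Ndufb8 lies over Gm20538 on the same strand, so its reads may be split.

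Cox7a2l stood on the other side. It stood at 347, 332 and 424 CPM in T cells (7d ratio 1.22), at 244, 250 and 301 in NK cells (1.23) and at 236, 429 and 331 in B cells (1d 1.82, 7d 1.40). In NK cells Ndufb1-ps, a complex I feature by its name that was singled out after its values were seen, was also higher at 7d, at 146 in Ctrl and 204 at 7d (1.39). In B cells Ndufa6 had a 7d ratio of 1.23, and in T cells the assembly factor Ndufaf4 had 1.25.

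**Figure D3:**
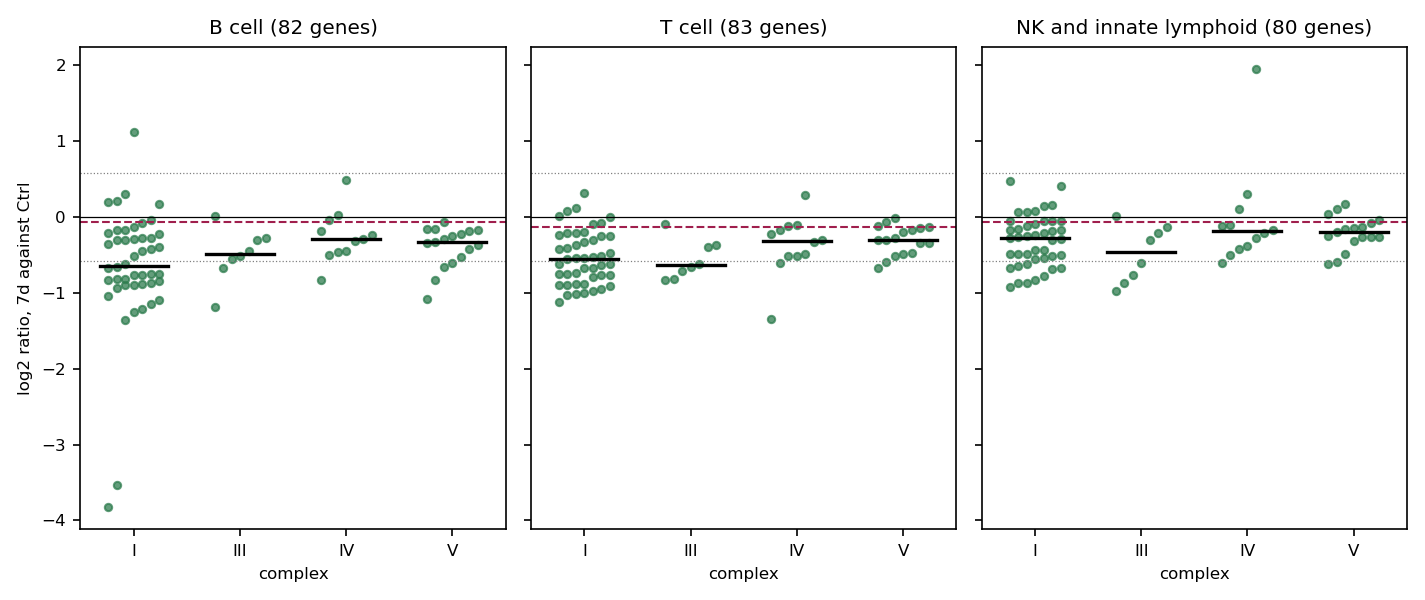
Log2 ratio of 7d to Ctrl for nuclear members in B, T and NK cells, by complex, 1 point per tested gene. Most points lie below 0, with class medians of −0.42, −0.48 and −0.26, and Cox7a2l lies above 0 in each class.

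At 1d the lymphocytes differed from one another. The nuclear sum had a ratio to Ctrl of 1.13 (1.12 to 1.14) in B cells and 1.14 (1.10 to 1.17) in NK cells but 0.907 (0.888 to 0.927) in T cells, in which it was lower in each of 3 clusters. Of the B cells at 1d, 926 of 1266 lay in a cluster led by Fam129c and Rag1 that held 49 cells of Ctrl and 34 of 7d, and the ratios within the 3 B cell clusters were 1.04, 1.07 and 1.10. Past 1.5-fold at 1d were 9 of 83 nuclear members higher (24.2% of all genes) and 3 lower (14%) in B cells, and 5 higher (11.8%) and 4 lower (11.6%) in T cells. All these shares were at or under the background. In T cells Atp5c1, the gamma subunit of ATP synthase, had a ratio of 1.32 and Ndufa4 one of 0.646. In B cells Ndufaf3, an assembly factor of complex I, went from 7.44 to 23.7 CPM (3.18, 2.04 to 5.09).

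Neutrophils (2938, 781 and 258 cells) had a lower mitochondrially encoded sum after irradiation, with ratios of 0.862 (0.846 to 0.879) at 1d and 0.815 (0.786 to 0.845) at 7d. All 12 tested mitochondrial genes were lower at both times, 2 of them past 1.5-fold, against 22.7% of all genes at 1d and 27.7% at 7d. The sum was lower in each of the 3 neutrophil clusters at both times. The cluster ratios were 0.710, 0.779 and 0.718 at 1d and 0.558, 0.682 and 0.714 at 7d, further from 1 than those of the class. With doublets kept, however, the class stood higher at 7d, at a log2 ratio of 0.12. The median depth of neutrophils was 1957, 3886 and 2878 UMIs in Ctrl, 1d and 7d. mt-Co1 stood at 1323, 1252 and 1164 CPM, mt-Cytb at 362, 289 and 264 and mt-Nd5 at 40.5, 26.2 and 14.9. The nuclear sum was near Ctrl, with ratios of 1.04 and 0.946, and its 7d ratios by cluster ran from 0.696 to 1.28, so no direction can be given for it. Cluster makeup differed between the libraries, since the cluster led by Mmp8 held 287, 418 and 118 of these cells. In Ctrl its mitochondrial share was 0.611%, against 0.377% and 0.367% in the other neutrophil clusters, and its nuclear share 0.968%, against 0.563% and 0.561%. The part of this makeup in the ratios of the class and of its single genes was not tested.

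Nuclear members of neutrophils moved in both directions at 7d, with 11 of 78 past 1.5-fold higher (21.5% of all genes) and 9 lower (27.7%). Ndufs5 stood at 18.3, 28.3 and 43.6 CPM (7d ratio 2.39, 1.64 to 3.41). Ndufs7, a core subunit of complex I, stood at 11.8 in Ctrl and 28.7 at 7d (2.43, 1.51 to 3.77). Both genes were lower in T cells at the same time. Atp5g2, which encodes the same subunit c as Atp5g1, stood at 56.9 in Ctrl and 21.8 at 7d (0.383). Uqcrh, the hinge protein of complex III, had ratios of 0.757 at 1d and 0.664 at 7d.

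Neutrophil precursors (130, 1062 and 629 cells) had higher sums of both genomes at 7d as a class, with ratios of 1.33 (mitochondrial) and 1.18 (nuclear). Inside the class, the nuclear ratio was 1.01 (0.999 to 1.02) in the early cluster with Elane and Mpo, which held 34, 216 and 348 cells, and 0.841 and 0.906 in the later clusters with Camp and Ltf. The mitochondrial ratio was 1.196 in the early cluster and 1.13 and 0.938 in the later ones, so it was higher in 2 of the 3. With TMM factors, which rescale a class by most of its genes, the class's nuclear log2 ratio was −0.15. Past 1.5-fold higher were 24 of 83 nuclear members, against 38.4% of all genes. The cluster makeup differed between the libraries, and its part in the class ratio was not tested. Ndufaf4 stood at 6.33, 9.27 and 30.03 CPM (7d ratio 4.75, 2.92 to 8.25, from 17 UMIs in Ctrl). Cox5a, a complex IV subunit, stood at 825, 440 and 594, so that 1d had a ratio of 0.533.

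Monocytes, with only 51 cells in Ctrl against 275 and 365, had a higher mitochondrially encoded sum after irradiation, at 1.52%, 2.10% and 1.91% of UMIs. The ratios were 1.38 (1.34 to 1.43) at 1d and 1.25 (1.21 to 1.29) at 7d, higher under each of 9 other ways of processing, with log2 ratios down to 0.03 and 0.08. mt-Nd3 stood at 90.1, 213 and 193 CPM and mt-Nd1 at 412, 762 and 701, whereas mt-Cytb stood at 1462, 1952 and 1443. The nuclear sum at 7d had a ratio of 0.859, with 67 of 79 members lower and 11 past 1.5-fold (19.8% of all genes), but it was above 1 in 4 of 9 other ways of processing. Neutrophil markers summed to 5781, 1953 and 1040 CPM in these cells and cycling genes to 15.7, 1214 and 655. Their part in the result was not tested.

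In mast cells and basophils (68, 52 and 118 cells) the nuclear sum was 1.49-fold (1.42 to 1.56) and 1.54-fold (1.47 to 1.603) that of Ctrl. Nuclear members past 1.5-fold higher were 45 of 71 at 1d (30% of all genes) and 46 of 75 at 7d (37.7%). Singled out after their values were seen, Atp5pb, a stator subunit of ATP synthase, was 2.57-fold (1.795 to 3.79) and Ndufb1-ps 3.11-fold (2.18 to 4.56) its Ctrl level at 7d. The mitochondrial sum was at 1.70%, 1.597% and 1.90% of UMIs. Markers of neutrophils summed to 22016, 7103 and 893 CPM in this class and its 3 basophil markers to 20611, 41464 and 27860. The 3 mast cell markers stood at 0, 213 and 928. The part of these markers in the result was not tested.

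Erythroid cells (166, 115 and 444 cells) came from different clusters in the libraries. Their nuclear sum was 0.5999%, 1.45% and 1.03% of UMIs, with 72 of 77 members past 1.5-fold higher at 1d (43.6% of all genes) and 54 of 80 at 7d (37.2%). Cycling genes summed to 62.3, 2610 and 2756 CPM. In the 1 cluster with enough cells at both Ctrl (103) and 7d (51), led by haemoglobin genes, the nuclear 7d ratio was 0.616 and the mitochondrial one 0.618. The class ratio and the cluster ratio thus had opposite directions.

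The unnamed cluster led by Pf4 and Itga2b (53, 193 and 353 cells) was lower in both sums at both times. Its nuclear ratios were 0.827 (0.818 to 0.835) and 0.797 (0.790 to 0.805), and its mitochondrial ratios 0.736 and 0.821. Lower were 73 of 85 nuclear members at 1d, 6 of them past 1.5-fold (10.8% of all genes), and 76 of 86 at 7d, 8 past it (16.8%). Macrophages (451, 221 and 45 cells), dendritic cells (117, 95 and 176) and fibroblasts (334, 98 and 67) had ratios of both sums between 0.899 and 1.08 at both times.

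Some subunits have paralogues that are known for restricted tissues, and these marked small groups of cells. Cox4i2, the variant of subunit IV known from lung and hypoxia, had 76.0% of its Ctrl UMIs and 83.2% of its 1d UMIs in an unnamed cluster led by Dio3, Bmp2, Enpp2 and Nes, at 378 and 360 CPM. At 7d that cluster held 46.3% of the UMIs (131 of 283) and fibroblasts 43.8%. Cox4i2 itself was among the top genes of that cluster. Fibroblasts held 107, 45.8 and 196 CPM of it. At 7d, 53 of the 124 fibroblast UMIs lay in 1 cell, and the level without that cell was 121. Neutrophils had 0 UMIs of Cox4i2 at 7d, with an upper limit of 4.23 CPM.

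Cox6a2, the variant of subunit VIa known from heart and skeletal muscle, was found mainly in plasmacytoid dendritic cells. They held 92.1%, 76.1% and 63.7% of its UMIs in Ctrl, 1d and 7d, at 1547 CPM in 29 cells of Ctrl, 1075 in 92 cells of 1d and 752 in 66 cells of 7d. The Pf4 cluster held 27.0% of the 7d UMIs, with 0, 66 and 158 UMIs in the 3 libraries. Against a floor of 3 counts in Ctrl, its levels were 8.25-fold higher at 1d and 12.04-fold higher at 7d. Ndufa4l2, a paralogue of Ndufa4 known as a hypoxia-induced gene, stood at 52.3, 43.5 and 425 CPM in fibroblasts, an 8.12-fold level at 7d (6.56 to 10.1). The 268 UMIs of 7d came from 23 of 67 cells, 103 of them from 1 cell, and the level without that cell was 282. Markers of pericytes and smooth muscle, a cell type in which Ndufa4l2 is also known, summed to 1052, 1188 and 436 CPM in these cells. At 7d 6 of the 7 markers were lower than in Ctrl, among them Rgs5 at 266, 167 and 31.7 CPM and Myh11 at 43.3, 44.7 and 0. For the last, a floor of 3 counts is 4.75. The other marker, Cspg4, was higher at 7d, at 54.7, 39.0 and 111 CPM. Their part in the result was not tested.

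Cox6b2, the variant of subunit VIb known from testis, was lower after irradiation in neutrophil precursors, neutrophils, fibroblasts and the Pf4 and Dio3 clusters, but not in all classes. It stood at 120, 27.0 and 36.9 CPM in neutrophil precursors (7d ratio 0.308, 0.265 to 0.358), and at 196, 42.8 and 40.6 in their Elane and Mpo cluster alone. In the Pf4 cluster it stood at 161, 35.0 and 37.0, and at 140 in Ctrl without the cell that held 54 of its 265 UMIs. In the Dio3 cluster it stood at 250 in Ctrl and 56.5 at 1d, and in fibroblasts at 70.2, 13.8 and 23.8. Neutrophils had 93 UMIs of it in Ctrl, 9.81 CPM, and 0 at 7d, with an upper limit of 4.23 CPM. With 7d set to a floor of 3 counts, 3.44 CPM, it was 2.85-fold lower. Erythroid cells went the other way, at 9.12, 102 and 61.1 CPM, from 6 UMIs in Ctrl. On 5 to 34 UMIs per library, macrophages stood at 7.91, 12.8 and 20.3 CPM and mast cells and basophils at 30.1, 36.8 and 40.9. Dendritic cells stood at 38.8, 21.3 and 38.8 CPM, and monocytes at 15.7, 24.4 and 13.3. T cells also stood lower after irradiation, at 4.34, 1.44 and 1.67 CPM, but on 19, 1 and 11 UMIs. B cells and NK cells had at most 8 UMIs of it in any library. Cox7a1, the muscle variant of subunit VIIa, had only 57, 77 and 65 UMIs in all kept cells.

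**Figure D4:**
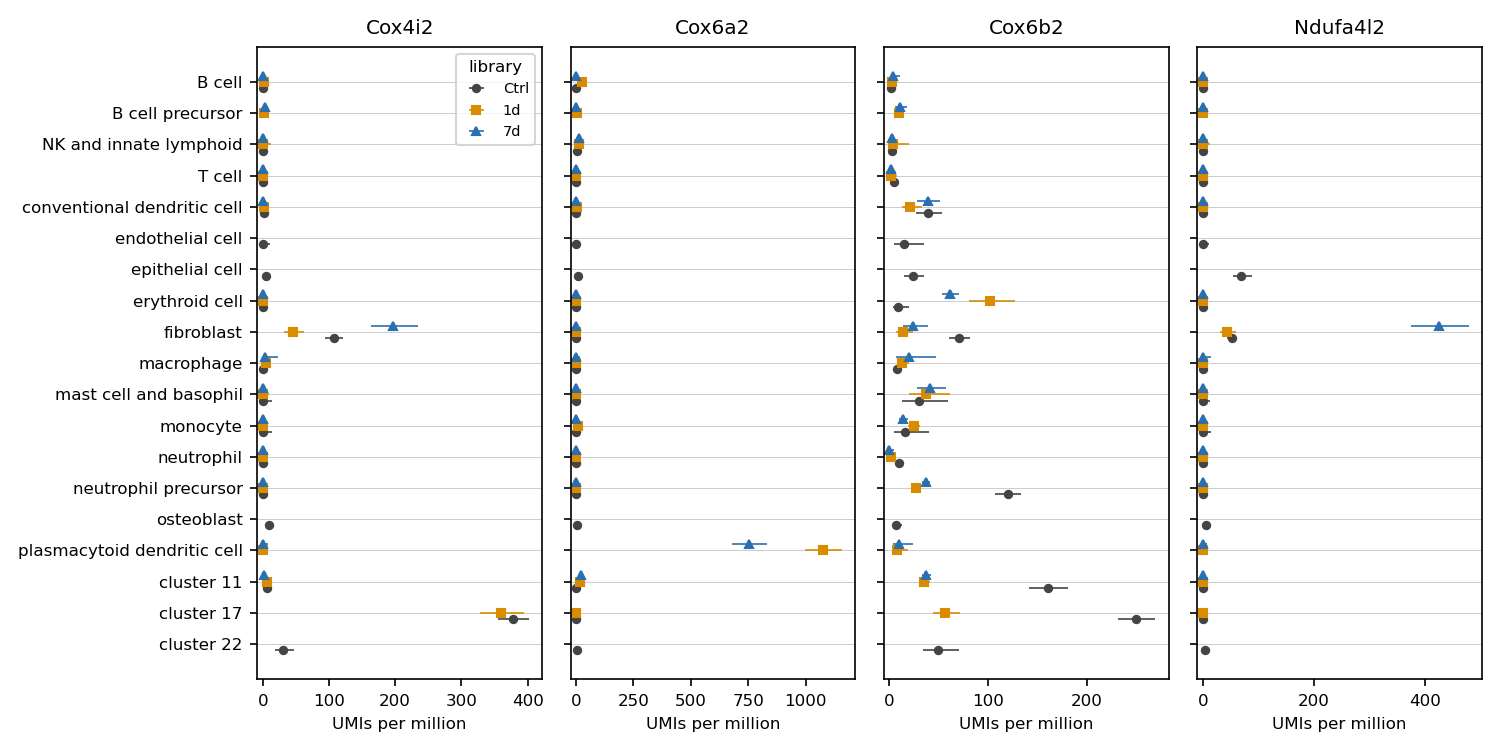
CPM of Cox4i2, Cox6a2, Cox6b2 and Ndufa4l2 by class and library. Cox4i2 peaks in the unnamed cluster 17 (378 in Ctrl), Cox6a2 in plasmacytoid dendritic cells, and Cox6b2 is lower at 1d and 7d than in Ctrl in neutrophil precursors (120, 27.0 and 36.9).

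The assembly factors of complex I had low counts. Of the 8 Ndufaf genes in T cells, 5 were past 1.5-fold higher at 1d (11.8% of all genes) and 5 past it lower at 7d (20% of all genes). In B cells 5 were past it lower at 7d (20.1% of all genes). Over all members, the count of 5 higher in T cells at 1d depended on the settings. It ran from 2 to 6 under other processing and from 0 to 7 with other minimums of UMIs. Ndufaf1 and Ndufaf6 had 27 and 22 UMIs in B cells of Ctrl and 0 at 7d. With 7d set to a floor of 3 counts, 3.09 CPM, Ndufaf1 was 2.32-fold lower and Ndufaf6 1.89-fold lower. Ndufaf8 stood at 62.5, 53.2 and 27.8 CPM in B cells (7d ratio 0.445) and at 56.2, 46.0 and 36.5 in T cells (0.650). Ndufaf4 in B cells stood at 71.8, 39.2 and 46.4, but its 1d direction turned with the processing.

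Related genes outside the naming rule gave a mixed picture in lymphocytes at 7d. Complex II and mobile carriers had a median log2 ratio of −0.40 in T cells (8 of 11 lower), −0.37 in B cells (8 of 11) and −0.06 in NK cells (8 of 11). Assembly factors of the other complexes had −0.12 in T cells (16 of 26 lower) and −0.29 in B cells (15 of 24), and genes that maintain and transcribe mitochondrial DNA −0.28 (11 of 15) and −0.06 (8 of 14). Regulators such as Nrf1, Gabpa and Myc had 0.16 in T cells and −0.0026 in B cells. Glycolysis genes had −0.17 in T cells (7 of 13 lower) and −0.28 in B cells (11 of 13). In neutrophil precursors at 7d all 26 assembly factors were higher, 16 of them past 1.5-fold (38.4% of all genes), with a median of 0.67 beside 0.39 over all genes.

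Across 40 class-by-library values, 89 members were compared by the Pearson r of log2 CPM, as a description of values that share libraries and depth. Pairs of mitochondrial genes had a median r of 0.929, pairs of nuclear genes 0.721 and mixed pairs 0.413. Nuclear pairs of the same complex (0.720) and of other complexes (0.722) had nearly the same median. Cox7c, a complex IV subunit, followed the nuclear sum most closely (0.964). Cox7a2l was most like Uqcrh (0.846) and then mt-Co1 (0.826).

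Without a filter on mitochondrial share, 57 of 8687 cells in Ctrl (0.656%, 0.497% to 0.849%), 104 of 5014 at 1d (2.07%, 1.70% to 2.51%) and 117 of 6271 at 7d (1.87%, 1.55% to 2.23%) had over 15% of UMIs from mitochondrial genes. An unnamed cluster of few UMIs held 8, 66 and 88 of them, with 26.2% and 25.4% mitochondrial UMIs at 1d and 7d. Its nuclear-encoded members took 0.978% and 0.793% of all UMIs, against 1.35% and 1.18% in T cells of the same libraries. Mitochondrial UMIs are part of that total, so a high mitochondrial share by itself lowers the nuclear share. In Ctrl 17 of the 57 were epithelial cells.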

How the data were processed

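Single-cell RNA was measured in 3 libraries of mouse jaw cells, 1 per group (Ctrl, 1d, 7d), each pooled from 8 mice, per the labels' protocols. The deposited values were raw UMI counts for each gene in each cell barcode. The submitters' processing notes name CASAVA 1.8, Seurat, Cell Ranger and the build mm10, and the file headers give Cell Ranger 6.1.1. How reads were aligned, which annotation was used and how cells were called is not given in the sources used here.

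Cells were kept with at least 500 UMIs and 250 genes and no mitochondrial filter. Scrublet in scanpy 1.11.5 removed 251 cells of Ctrl (2.81%). Its automatic threshold marked under 0.5% of 1d and 7d, where the highest scores were removed at 0.8% per 1000 cells: 219 (4.18%) and 351 (5.30%). The 2000 most variable genes without the members and mt- genes were reduced to 30 principal components, and a graph of 15 neighbours was split by Leiden at resolution 1, with no correction between libraries. A cluster was named where at least 3 markers passed a log2 of 1 and 10% of its cells and 60% passed or 3 were among its top 10 genes. It stayed unnamed where another class led it or its depth was low.

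UMIs were summed per class and library, as a share of all UMIs or per 1000000, and classes with at least 30 cells on both sides were compared by ratios with exact 95% intervals. Log2 ratios of single genes used a pseudocount of 0.5 UMIs. Code was tested on simulated counts. Named members were the 13 mitochondrial genes, the nuclear members with at least 100 UMIs whose interval's nearer end lay furthest from 1 (at most 3 on each side, in classes of at least 100 cells per library), listed paralogues and Ndufaf genes. Values of a named member in other classes are given beside it, and Ndufb1-ps in NK cells and mast cells and Atp5pb were chosen after their values were seen. Promoters and positions came from RefSeq GRCm38.p6 and GENCODE M21, and all 105 members matched the latter. The NRF1 core searched in promoters was chosen after counts of a longer form of the site had been seen. On the same strand 6 nuclear members overlap another counted gene: Ndufb2, Ndufa13, Cox4i1, Ndufb9, Atp5o and Ndufb8. The members, gene lists and comparisons were chosen with earlier results of these data known, and the naming of clusters was settled once the values were known.

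Alternatives were filters on mitochondrial share, depth and doublets, other clusterings, another denominator, TMM factors (edgeR 4.0.16), equal weight per cell, subtraction of 5% free RNA, other minimums of UMIs and single clusters, the last chosen after seeing the data.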

Additional observations from a re-analysis of the deposited data

Results flagged for a closer look

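In several members, 2 cell classes stood past 1.5-fold of Ctrl in opposite directions, also by the nearer end of their counting intervals. The differences between classes were not tested, since each group was 1 library. How many of all genes stood so in 2 classes was not counted. At 7d, 20% of all genes were past 1.5-fold lower in T cells and 20.1% in B cells. Past it higher were 37.2% in erythroid cells, 38.4% in neutrophil precursors and 21.5% in neutrophils.

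At 7d, ratios to Ctrl were low in lymphocytes and high elsewhere for these members. Atp5g1 had 0.471 in B cells, 2.73 in erythroid cells and 1.89 in neutrophil precursors. Ndufc2 had 0.426 in B cells, 0.535 in T cells and 3.63 in erythroid cells. Ndufs7 had 0.489 in T cells, 2.43 in neutrophils and 2.80 in erythroid cells. Ndufs5 had 0.458 in T cells and 2.39 in neutrophils. Ndufa11 had 0.540 in T cells and 3.63 in erythroid cells, Ndufb8 0.494 and 2.36, and Ndufb9 0.533 and 4.34. Different clusters held the erythroid class in Ctrl and 7d, and the ratio of its nuclear sum turned within the shared cluster. Cluster makeup also differed between the libraries in neutrophil precursors, neutrophils and B cells, and its part in these ratios was not tested.

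In the opposite sense, Cox6b2 had a 7d ratio of 6.71 in erythroid cells and 0.308 in neutrophil precursors. mt-Nd1 had 0.559 in erythroid cells and 1.68 in neutrophil precursors at 7d. At 1d Cox7a2l had 1.82 in B cells and 0.482 in neutrophil precursors.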

How the results depend on the processing

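The lower nuclear-encoded sums of lymphocytes at 7d kept their direction under all 10 alternatives in filters, clustering, scaling and free RNA, with log2 ratios of −0.38 to −0.25 in B cells, −0.37 to −0.21 in T cells and −0.27 to −0.17 in NK cells. Their counts of members past 1.5-fold lower ran from 28 to 36, 21 to 34 and 11 to 21. No class sum moved by over 1.5 times under those alternatives, but class sums left their counting interval 197 times and stayed within it 201 times. The medians over classes were small and moved often. For the mitochondrially encoded sum at 1d the median log2 ratio was −0.10, and it was −0.16 with doublets kept, −0.0545 at Leiden resolution 0.5, −0.13 without mt- and haemoglobin genes in the denominator, −0.16 with TMM factors and 0.0025 with each cell at the same weight. At 7d it was 0.0050, and 0.0267 with at most 15% mitochondrial UMIs, 0.0333 with the strict filter, 0.12 with doublets kept, 0.0398 and 0.0489 at resolutions 0.5 and 2, 0.10 with members used in clustering, −0.0537 with TMM factors and 0.0816 with equal cell weight. For the nuclear-encoded sum at 1d it was 0.10, and 0.14 with at most 15% mitochondrial UMIs, 0.0494 with the strict filter, 0.16 at resolution 0.5, 0.0263 with members used in clustering and 0.0198 with TMM factors. At 7d it was −0.08, and 0.10 with at most 15% mitochondrial UMIs, −0.00550 with the strict filter, 0.0669 with doublets kept, 0.0304 and −0.14 at resolutions 0.5 and 2, −0.14 with members used in clustering, 0.11 with equal cell weight and −0.14 with free RNA subtracted. The cause was not tested. No general direction over classes can therefore be given. Ndufaf4 in B cells at 1d had a log2 ratio of −0.87, which turned to 0.31 with at most 15% mitochondrial UMIs, 0.39 with the strict filter, 0.21 with doublets kept and 0.000503 at resolution 2. The nuclear-encoded sum of erythroid cells at 7d turned from 0.78 to −0.70 in the shared cluster alone, an alternative chosen after seeing the data. Values of named members stayed within their interval 437 times, left it 79 times and turned 4 times. With 1 library per group no replicate could be left out, and classes of few cells, such as 51 monocytes in Ctrl, limit precision. No paired analysis was possible because each group had 1 library.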
